A study of Mus musculus with 12 samples.

Results

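The levels of 10 genes of adipose tissue macrophages were examined in inguinal white adipose tissue (iWAT) of mice that overexpressed the secreted Wnt inhibitor NOTUM in the liver. The genes were chosen by name, with earlier results of these data known: Adgre1, Cd68, Csf1r, Lyz2, Mrc1, Cd163, Trem2, Gpnmb, Spp1 and Itgax, which are 10 of the 54134 genes listed in the raw count table. All 10 were found, each under the gene identifier with the most reads, and 9 passed the filter on low counts. Trem2 did not pass. RNA-seq was performed on iWAT of 12 male C57BL/6J mice, injected at 8 weeks of age through the tail vein with 1e12 genome copies of an adeno-associated virus (AAV, serotype 8). The virus carried GFP (AAV-GFP, 6 mice) or mouse Notum (AAV-Notum, 6 mice), and both groups carried the same liver-specific thyroxine binding globulin promoter. All mice were fed a chow diet for 4 weeks and fasted for 4 h before iWAT was collected, and no mice without virus were included. The comparison of AAV-Notum with AAV-GFP animals asks how macrophage genes of the fat pad differed when the liver made extra NOTUM. Whole tissue was sequenced, so fewer macrophages and less RNA per macrophage cannot be told apart.

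Adipose tissue holds macrophages that differ in position and in the genes they express. Resident macrophages lie along blood vessels and carry scavenger and lectin receptors such as CD163 and the mannose receptor CD206, which Mrc1 encodes. Lipid-associated macrophages gather around dying or overfilled adipocytes, take up lipid, and express Trem2, Gpnmb and Spp1, while CD11c, the product of Itgax, marks inflammatory macrophages of obese fat and also dendritic cells. Adgre1 (F4/80), Cd68, Csf1r and Lyz2 are expressed more broadly by macrophages, whose survival depends on signaling through the receptor CSF1R.

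The sequences just upstream of the start sites of 4 of these genes are shown, since Cd163 and Mrc1 were lower in AAV-Notum animals at an unadjusted p under 0.05, and the levels of Gpnmb and Spp1 correlated across the 12 mice. Each run holds the 250 bases before the RefSeq start site (build GRCm38.p6), 5′ to 3′ on the strand of the gene. Capitals mark matches to any of 3 motifs searched on both strands. These were GAGGAA, the core of the site of the macrophage factor PU.1, TGANTCA, the site of AP-1, and AGAACA, a half-site of the glucocorticoid receptor. No matches of different motifs overlapped in these 4 windows. Cd163 lies on the plus strand at chr6:124304401-124304650, Mrc1 on the plus strand at chr2:14229164-14229413, Gpnmb on the plus strand at chr6:49036268-49036517, and Spp1 (the upstream of its 2 RefSeq start sites) on the plus strand at chr5:104434861-104435110.
Cd163: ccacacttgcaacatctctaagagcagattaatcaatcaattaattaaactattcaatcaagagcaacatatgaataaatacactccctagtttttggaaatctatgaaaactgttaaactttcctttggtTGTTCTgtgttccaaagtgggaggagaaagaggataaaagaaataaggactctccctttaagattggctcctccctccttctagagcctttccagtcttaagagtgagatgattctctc
Mrc1: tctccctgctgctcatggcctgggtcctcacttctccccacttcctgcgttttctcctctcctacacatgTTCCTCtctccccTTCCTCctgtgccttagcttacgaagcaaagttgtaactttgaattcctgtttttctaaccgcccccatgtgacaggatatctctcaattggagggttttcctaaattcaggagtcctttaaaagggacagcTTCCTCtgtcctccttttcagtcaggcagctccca
Gpnmb: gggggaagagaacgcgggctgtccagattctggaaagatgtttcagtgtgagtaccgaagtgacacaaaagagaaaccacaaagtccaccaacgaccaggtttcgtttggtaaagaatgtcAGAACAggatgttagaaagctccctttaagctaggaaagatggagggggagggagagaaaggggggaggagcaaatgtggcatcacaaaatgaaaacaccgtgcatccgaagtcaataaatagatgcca
Spp1: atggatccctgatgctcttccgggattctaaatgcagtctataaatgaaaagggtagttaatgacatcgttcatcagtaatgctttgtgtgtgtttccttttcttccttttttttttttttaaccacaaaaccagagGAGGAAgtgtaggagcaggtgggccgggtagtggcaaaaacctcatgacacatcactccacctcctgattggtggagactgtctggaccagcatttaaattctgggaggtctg

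The Mrc1 window held 3 matches to GAGGAA, all on the opposite strand, beginning 180, 167 and 35 bases before the start site, and no match to the other motifs. The Cd163 window held 1 match to AGAACA, on the opposite strand and 119 bases before the start site, and no GAGGAA. Gpnmb had 1 AGAACA and Spp1 had 1 GAGGAA. RefSeq windows were matched for 8 of the 10 genes, and GAGGAA was found in 4 of the 8 genes, TGANTCA in 3 and AGAACA in 3. Of all 32851 windows of this length, 23.3% held GAGGAA, 6.75% held TGANTCA and 16.1% held AGAACA, and a match is a description only.

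Each mouse gave a library of 14711113 to 21618860 counted reads, and RNA integrity numbers ran from 5.7 to 7.6 in AAV-GFP and from 6.9 to 7.4 in AAV-Notum animals. RNA of mouse AAV-GFP-2012 was isolated on day 28 of the month and that of the other 11 mice on day 8. Notum itself had 1 to 17 reads (median 3.5) in iWAT of AAV-GFP animals and 8 to 560 (median 13) in AAV-Notum animals. The tissue carried its label's markers, with an adipocyte score (mean log2 CPM of 10 markers, CPM being TMM-scaled read counts per library of 1e6) of 10.5 to 11.6 in both groups. A lymphoid score over 15 T and B cell markers set AAV-GFP-2011, at 0.13, and AAV-GFP-2014, at -0.67, apart from the other mice at 3.70 to 7.18. All 15 lymphoid genes had positive log2 fold changes (median 0.97), and none passed an unadjusted p of 0.05 in edgeR. Hepatocyte markers varied widely, with a score of -0.80 to 8.17 in AAV-GFP animals and -0.88 to 5.46 in AAV-Notum animals.

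Of the 10 macrophage genes, none differed between the groups at an adjusted p under 0.05 in edgeR's quasi-likelihood test, where 8 of 15585 genes tested (0.0513%) did. At an unadjusted p under 0.05, Cd163 and Mrc1 were lower in AAV-Notum animals, 2 of 9 tested, where 9.54% of all genes were lower. No macrophage gene was higher at that p, against 4.64% of all genes. Cd163 was the one macrophage gene whose groups did not overlap, all 6 AAV-Notum animals being below all 6 AAV-GFP animals, a pattern that 0.693% of all genes tested showed. DESeq2, the tool the study used, called Cd163 alone among the 10 (lower, adjusted p = 2.48e-05), where it called 1.12% of 31947 genes lower. These 31947 include genes to which DESeq2 gave no adjusted p, so its share and that of edgeR are not over the same genes. The 9 tested macrophage genes had a median log2 fold change of 0.12, against 0.0077 for all genes tested.

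**Figure D1:**
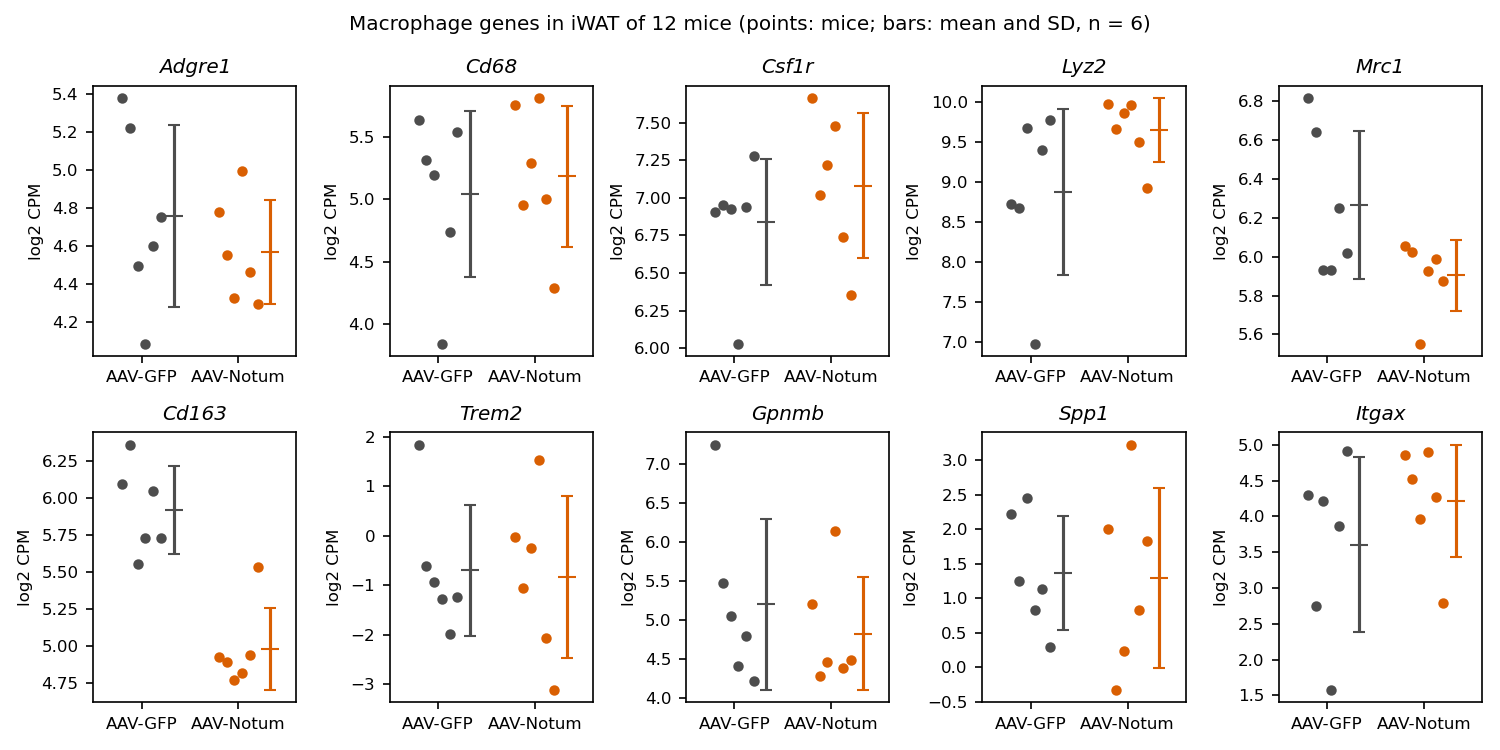
Level of each macrophage gene in log2 CPM (vertical axes, each with its own range) in the 6 AAV-GFP animals (grey) and the 6 AAV-Notum animals (orange), 1 point a mouse, with the mean and SD beside the points. The groups separate for Cd163 and overlap for the other 9 genes, and Trem2 and Gpnmb each have 1 high mouse in either group.

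Cd163 encodes the hemoglobin-haptoglobin scavenger receptor of tissue macrophages (ENSMUSG00000008845, chromosome 6 of GRCm38 from 124304656 to 124330527, plus strand). Its level in AAV-GFP animals was 46.9 CPM at the lowest, 59.5 at the median and 81.9 at the highest. In AAV-Notum animals it was 27.2 CPM at the lowest, 29.9 at the median and 46.1 at the highest. AAV-Notum-2042 reached to just below the lowest AAV-GFP animal, and the other AAV-Notum animals lay close together. The mean was 61.5 ± 12.96 CPM (SD, n = 6) in AAV-GFP and 32.0 ± 7.04 CPM (SD, n = 6) in AAV-Notum animals, from 410 to 1432 reads per mouse. Cd163 had a log2 fold change of -0.94 (standard error, SE, 0.16, unadjusted p = 7.59e-05, edgeR adjusted p = 0.0696), the 17th smallest p of the genes tested. An exact permutation test of the mean log2 CPM, two-sided here and throughout, gave p = 0.00216, the smallest this design allows. The adjusted p of Cd163 depended on single mice and was 0.0454 without AAV-GFP-2013, 0.0314 without AAV-GFP-2022 and 0.0264 without AAV-Notum-2042. With any of the other 9 mice left out it was 0.107 to 0.218, the highest being without AAV-Notum-2031.

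Mrc1 encodes the mannose receptor, an endocytic lectin of resident macrophages (ENSMUSG00000026712, chromosome 2 from 14229392 to 14332057, plus strand). Mrc1 was at 61.0, 70.4 and 113 CPM (lowest, median and highest) in AAV-GFP animals and at 46.8, 62.1 and 66.3 CPM in AAV-Notum animals. The groups overlapped, with 3 of the 6 AAV-Notum animals below every AAV-GFP animal and all 6 below the AAV-GFP mean. Its mean was 79.2 ± 22.0 CPM (SD, n = 6) against 60.1 ± 7.12 CPM (SD, n = 6). This gave a log2 fold change of -0.40 (SE 0.16, unadjusted p = 0.0323, edgeR adjusted p = 0.312, exact permutation p = 0.0693). Mrc1 no longer passed the unadjusted p when AAV-GFP-2011, AAV-GFP-2012, AAV-Notum-2033 or AAV-Notum-2042 was left out. Nor did it pass with the RNA integrity number, the lymphoid score or the adipocyte score as a covariate. The gene Mir511 lies within Mrc1 on the same strand, and it had 3 reads in all against 14712 for Mrc1.

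Some other genes of resident macrophages were lower before adjustment. Of 14 genes of a resident (perivascular) macrophage list, all tested, 9 were lower at an edgeR p under 0.05 before adjustment and none was higher, where 9.54% of all genes were lower and 4.64% higher, with a median log2 fold change of -0.53. The list, too, was chosen with earlier results known, and its count is a description. The count was 6 when the RNA integrity number entered the edgeR fit. In that fit 928 of all 15585 genes were lower at that p, against 1487 without the number. None passed an adjusted p of 0.05 in edgeR (the smallest was 0.168), and DESeq2 called F13a1 alone (adjusted p = 0.0431). Stab1, which encodes the scavenger receptor stabilin-1, went from 96.6 ± 20.3 to 67.5 ± 10.8 CPM (SD, n = 6 each, log2 fold change -0.52, edgeR unadjusted p = 0.00417). F13a1, which encodes the clotting factor XIII A chain that macrophages make, went from 72.6 ± 20.1 to 45.8 ± 9.46 CPM (log2 fold change -0.66, edgeR unadjusted p = 0.00427). Cd209f, a C-type lectin gene, went from 22.0 ± 7.35 to 14.5 ± 1.95 CPM (log2 fold change -0.60, edgeR unadjusted p = 0.00885). In each of these 3 genes all 6 AAV-Notum animals were below the AAV-GFP mean. The members of the list were not uniform. Timd4 and Ccl8, named after their values were seen, had positive log2 fold changes of 0.95 and 0.79 that did not pass the unadjusted p, and all 6 AAV-Notum animals were above the AAV-GFP mean for both.

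No gene common to macrophages passed the same threshold. Of 18 genes of a pan-macrophage list, all tested, none was lower or higher at an edgeR p under 0.05 before adjustment or in DESeq2, and the median log2 fold change was 0.11. With single mice left out this median ran from -0.04 to 0.28, turning negative without AAV-GFP-2014 (-0.04) or AAV-Notum-2034 (-0.02). The 3 of smallest p were Mpeg1 (perforin-2, log2 fold change 0.76, edgeR adjusted p = 0.407), Aif1 (IBA1, 0.60, edgeR adjusted p = 0.43) and Cd14 (the endotoxin co-receptor, -0.34, edgeR adjusted p = 0.445). The difference between the resident and the pan-macrophage list was not itself tested. Relative to Csf1r in the same library, Cd163 (log2 CPM of Cd163 minus that of Csf1r) ran from -1.55 to -0.30 in AAV-GFP animals with a median of -0.86, and from -2.74 to -0.83 in AAV-Notum animals with a median of -2.29. This ratio overlapped between the groups only through AAV-Notum-2042, at -0.83, since the other 5 AAV-Notum animals were at -1.80 or below.

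**Figure D2:**
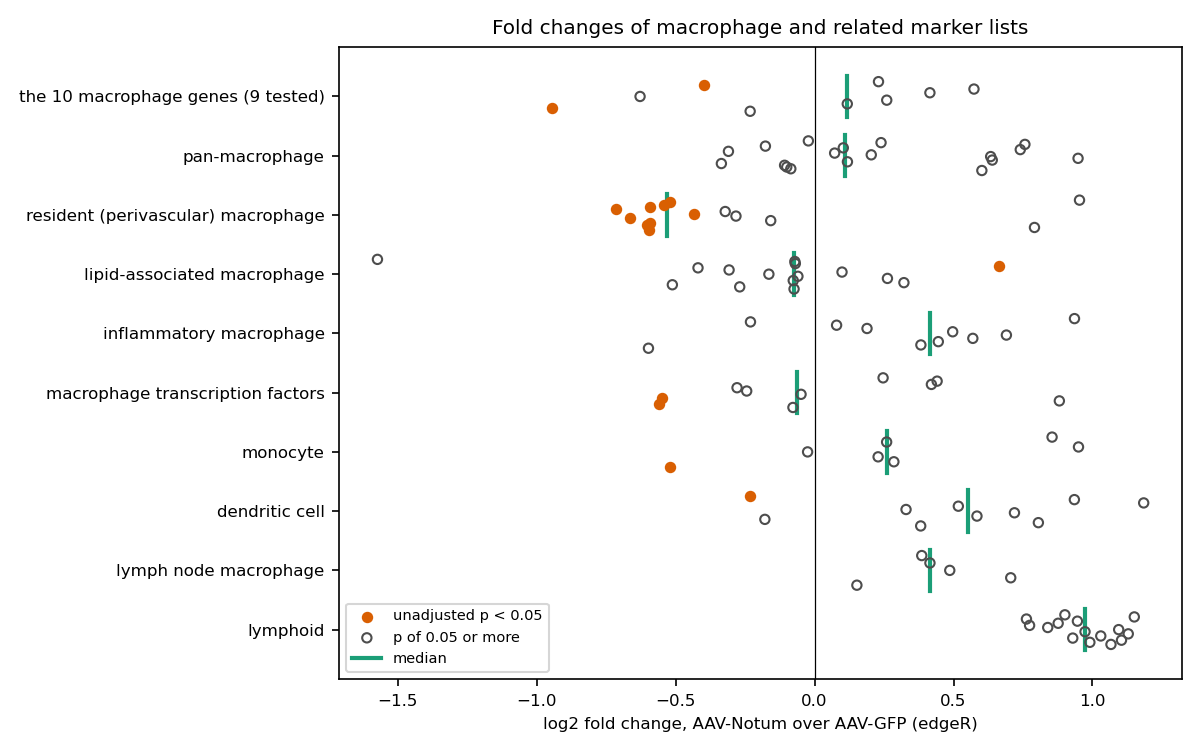
Log2 fold change of AAV-Notum over AAV-GFP animals from edgeR (horizontal axis) for each tested gene of the 10 macrophage genes and of 9 marker lists, with filled points for an unadjusted p under 0.05 and a green bar at the list's median. The resident macrophage list holds 9 filled points, all below 0, the pan-macrophage list none, and all lymphoid genes lie above 0 without passing.

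The resident list was also counted with the lymphoid score taken into the fit. With that score as a covariate in edgeR, 4 of the 14 resident genes were lower at an unadjusted p under 0.05 (Lyve1, F13a1, Retnla and Stab1). Of all 15585 genes, 760 were lower at that p in this fit, against 1487 without the covariate. Lyve1 had not passed without the covariate (edgeR unadjusted p = 0.222). The median log2 fold change of the list was -0.37 with the covariate. With the covariate Cd163 had a log2 fold change of -0.85 (unadjusted p = 3.61e-04, adjusted p = 0.237), and Mrc1 one of -0.27 that did not pass the unadjusted p. With neither AAV-GFP-2011 nor AAV-GFP-2014 included, 8 of the 14 resident genes were lower at an unadjusted p under 0.05, where 792 of 15994 genes tested were. Cd163 then had a log2 fold change of -0.96 (edgeR adjusted p = 0.254).

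A list of 8 glucocorticoid-induced genes, chosen after values were seen, was also measured in these mice. All 8 had negative log2 fold changes, with a median of -0.56, and 6 of them were lower at an edgeR p under 0.05 before adjustment, where 9.54% of all genes were. None of the 8 passed an adjusted p of 0.05 in edgeR (smallest 0.124), and DESeq2 called 3 of them lower after adjustment, Per1, Zbtb16 and Cebpd. The log2 fold changes farthest from 0 were those of Zbtb16, from 176 ± 67.4 to 82.5 ± 26.0 CPM (SD, n = 6, log2 fold change -1.09, edgeR adjusted p = 0.14), and of Cebpd, from 26.9 ± 8.27 to 13.6 ± 3.55 CPM (log2 fold change -0.98, edgeR adjusted p = 0.124). The list score ran from 6.33 to 6.95 in AAV-GFP animals but from 5.68 to 6.33 in AAV-Notum animals. The part of these genes in the level of Cd163 was not tested. Liver macrophages can also express Cd163. A list of 4 Kupffer cell genes, chosen after values were seen, had 2 genes tested, and neither passed an unadjusted p of 0.05 in edgeR. DESeq2 passed Slc40a1 alone of the 4 as lower at that p and none after adjustment. The iron exporter gene Slc40a1 had a log2 fold change of -0.62 (edgeR unadjusted p = 0.0541), with 5 of 6 AAV-Notum animals under the control mean, and Cd5l had one of 0.15 (edgeR unadjusted p = 0.843). Clec4f had 137 and 58 reads in AAV-GFP-2013 and AAV-GFP-2014, where no other mouse had over 25, and Vsig4 had 3 to 47 reads. The score over the 2 tested genes was 2.26 to 4.90 for AAV-GFP and 3.03 to 4.47 for AAV-Notum animals. The part of these genes in the level of Cd163 was not tested.

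Csf1r encodes the receptor for the growth factors CSF1 and IL-34 (ENSMUSG00000024621, chromosome 18 from 61100598 to 61132149, plus strand). Its level was 65.2, 122 and 155 CPM (lowest, median and highest) in AAV-GFP animals and 81.8, 139 and 203 CPM in AAV-Notum animals. The groups overlapped widely, and the lowest mouse, AAV-GFP-2014, was also the one with the lowest lymphoid score. The log2 fold change of Csf1r was 0.26 (SE 0.23, edgeR adjusted p = 0.553, exact permutation p = 0.383), and -0.02 with the lymphoid score as a covariate. The antisense gene Hmgxb3 overlaps Csf1r and had 7298 reads against 27443, and reads of the 2 genes cannot be told apart where counting ignored strand.

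Of the ligands of the receptor, Il34 was lower at an edgeR p under 0.05 before adjustment and Csf1 did not pass. Il34 went from 19.0 ± 6.35 to 11.0 ± 2.59 CPM (SD, n = 6, log2 fold change -0.79, SE 0.23, unadjusted p = 0.00531, edgeR adjusted p = 0.181, adjusted p = 0.0475 from DESeq2), with all 6 AAV-Notum animals below the AAV-GFP mean. Csf1 was at 67.1 ± 11.8 CPM in AAV-GFP and 56.5 ± 5.69 CPM in AAV-Notum animals (log2 fold change -0.25, edgeR unadjusted p = 0.051), with 5 of 6 AAV-Notum animals below the AAV-GFP mean. Il34 was the only one of 13 signaling partners of CSF1R, TREM2 and osteopontin to pass the unadjusted p in edgeR, a count no larger than the 9.54% of all genes that were lower at that p would give. Of the 13, 9 had positive log2 fold changes, and the list's median was 0.58. With the lymphoid score as a covariate the median was -0.10, and none of the 13 passed in edgeR. Hcst, which encodes the adaptor DAP10, had a log2 fold change of 0.95 (edgeR unadjusted p = 0.16).

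Adgre1 encodes F4/80, the classical mouse macrophage antigen (ENSMUSG00000004730, chromosome 17 from 57358691 to 57483527, plus strand). Its level was 16.9, 25.5 and 41.4 CPM (lowest, median and highest) in AAV-GFP and 19.5, 22.6 and 31.8 CPM in AAV-Notum animals. Every AAV-Notum animal lay within the range of the AAV-GFP animals, and the log2 fold change was -0.23 (SE 0.21, edgeR adjusted p = 0.557, exact permutation p = 0.416).

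Cd68 encodes macrosialin, a lysosomal glycoprotein of phagocytes (ENSMUSG00000018774, chromosome 11 from 69664213 to 69666153, minus strand). Its level was 14.2, 38.0 and 49.6 CPM in AAV-GFP and 19.4, 35.4 and 55.8 CPM in AAV-Notum animals, lowest, median and highest. This difference did not exceed the variation among mice (log2 fold change 0.12, SE 0.31, edgeR adjusted p = 0.846, exact permutation p = 0.697). The direction for Cd68 turned in 6 of 24 alternatives, including each of the 3 fits with a cell-type score as covariate.

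Lyz2 encodes lysozyme 2 of myeloid cells (ENSMUSG00000069516, chromosome 10 from 117277331 to 117282321, minus strand) and was the most abundant of the 10 genes. Its level was 127, 550 and 873 CPM in AAV-GFP and 488, 869 and 1007 CPM in AAV-Notum animals, lowest, median and highest. All 6 AAV-Notum animals exceeded the mean of the controls, and 3 of the 6 exceeded every control. The mean was 555 ± 285 against 826 ± 199 CPM (SD, n = 6), but the difference did not pass (log2 fold change 0.57, SE 0.37, edgeR adjusted p = 0.462, exact permutation p = 0.0844). With the lymphoid score as a covariate the log2 fold change of Lyz2 was 0.04. Reads of Lyz2 could be shared with its near-identical neighbour Lyz1, which held 3.35% to 14.0% of the reads of the pair in each mouse.

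Itgax encodes the integrin CD11c (ENSMUSG00000030789, chromosome 7 from 128129547 to 128150657, plus strand). Its level ran over a wide range in both groups, at 2.86, 16.5 and 30.2 CPM in AAV-GFP and 6.80, 21.0 and 29.8 CPM in AAV-Notum animals, lowest, median and highest. Itgax had a log2 fold change of 0.42 (SE 0.49, edgeR adjusted p = 0.643, exact permutation p = 0.316) and -0.05 with the lymphoid score as a covariate. Of 10 dendritic cell genes, 8 had positive log2 fold changes, with a median of 0.55. Zbtb46, a factor of dendritic cells that endothelium also expresses, was the one of the 10 that passed an unadjusted p of 0.05 in edgeR, where 9.54% of all genes were lower, and it was lower, at 38.1 ± 4.19 against 32.4 ± 0.918 CPM (SD, n = 6, log2 fold change -0.23, edgeR adjusted p = 0.216). Siglech, a gene of plasmacytoid dendritic cells, had a log2 fold change of 1.18 (edgeR unadjusted p = 0.0843), and Xcr1, a chemokine receptor gene of conventional dendritic cells, one of 0.93 (edgeR unadjusted p = 0.105), both with all 6 AAV-Notum animals above the mean of the controls. With the lymphoid score as a covariate the list's median was -0.12.

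Itgax and Lyz2 followed the lymphoid score across mice. Since AAV-GFP-2011 lay far from the others on that score, as did AAV-GFP-2014, the correlation was computed over the other 10 mice, for each of the 10 genes. Lyz2 had a Pearson r of 0.93 (permutation p = 5.9e-04, adjusted p = 0.00295) and a Spearman rho of 0.78 (permutation p = 0.0104, adjusted p = 0.0522), and r was 0.62 without the 2 mice farthest from the median score. Itgax had a Pearson r of 0.90 (permutation p = 2.7e-04, adjusted p = 0.0027) and a Spearman rho of 0.84 (permutation p = 0.00359, adjusted p = 0.0359), and r was 0.75 without those 2 mice. For Cd163 r was -0.69 (permutation p = 0.0217, adjusted p = 0.0725), rho was -0.59 (permutation p = 0.0805, adjusted p = 0.201), and r was -0.39 without those 2 mice. These 10 mice span both groups, and the 4 AAV-GFP animals are too few for a coefficient of their own. Within the 6 AAV-Notum animals r for Cd163 was -0.85, and r without AAV-Notum-2042 was not computed. That mouse had the lowest lymphoid score of its group, 5.12. Its Cd163 was at 5.53 log2 CPM, against 4.77 to 4.94 in the other AAV-Notum animals. Apart from Lyz2 and Itgax, no macrophage gene passed an adjusted p of 0.05 by either coefficient. Lymph node macrophage markers also varied among AAV-GFP animals (score 1.85 to 5.79) and less widely among AAV-Notum animals (score 4.14 to 5.43). Their part in the levels of the 10 genes was not tested.

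**Figure D3:**
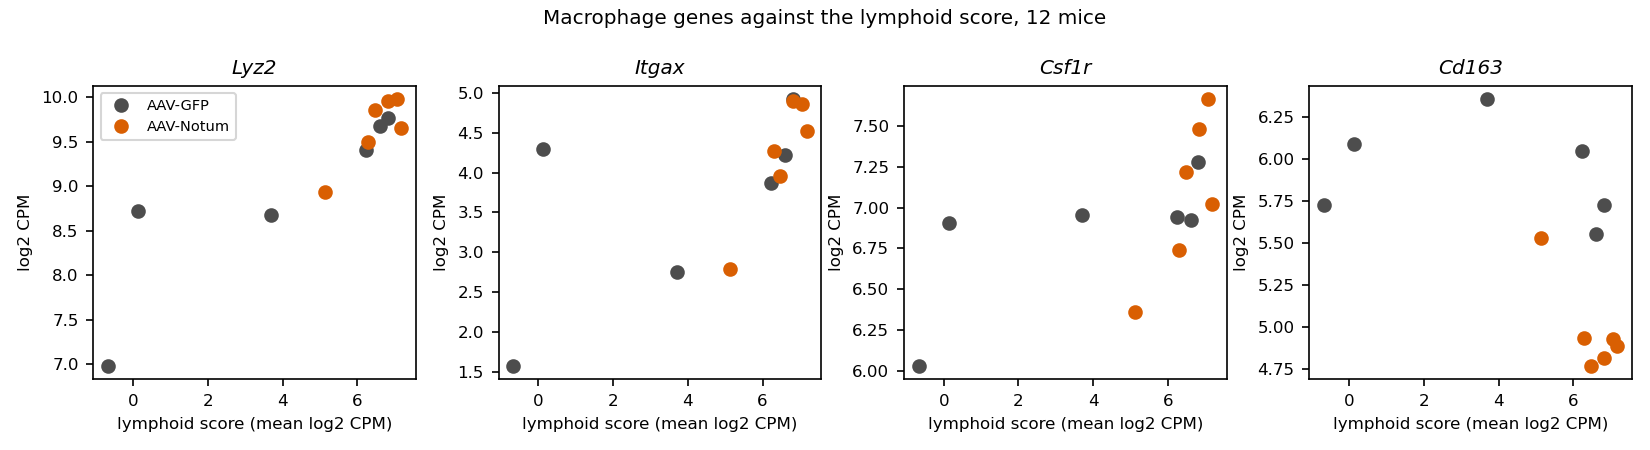
Level of Lyz2, Itgax, Csf1r and Cd163 in log2 CPM (vertical axes) against the lymphoid score, the mean log2 CPM of 15 lymphoid markers (horizontal axes), 1 point for each of 12 mice, AAV-GFP grey and AAV-Notum orange. Lyz2 and Itgax rise with the score, apart from Itgax in AAV-GFP-2011, while the groups overlap for these 2 genes and for Csf1r and separate for Cd163.

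Trem2 encodes a lipid-sensing receptor of lipid-associated macrophages (ENSMUSG00000023992, chromosome 17 from 48346401 to 48354147, plus strand) and was scarcely detected. It had 3 to 62 reads in AAV-GFP and 0 to 49 reads in AAV-Notum animals. Its level was 0.138, 0.359 and 3.47 CPM (lowest, median and highest) in AAV-GFP animals and 0, 0.548 and 2.77 CPM in AAV-Notum animals. The 0 of AAV-Notum-2042 allows a level of up to 0.194 CPM, the level of 3 reads, counting error only. The high mice were AAV-GFP-2011 and AAV-Notum-2034, 1 in each group, and the other 10 mice were below 1 CPM. No difference between groups was detected (exact permutation p = 0.887 on log2 CPM), at few reads and with 1 high mouse in each group.

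Gpnmb encodes a lysosome-associated glycoprotein (ENSMUSG00000029816, chromosome 6 from 49036546 to 49070929, plus strand) and was high in the same mice. AAV-GFP-2011 had 151 CPM and AAV-Notum-2034 had 70.4 CPM, where the other mice had 18.6 to 44.2 CPM. The mean was 49.4 ± 50.8 CPM in AAV-GFP and 31.9 ± 19.9 CPM in AAV-Notum animals (SD, n = 6), no more than the variation among mice (log2 fold change -0.63, SE 0.54, edgeR adjusted p = 0.54, exact permutation p = 0.528). AAV-GFP-2011 set the direction for Gpnmb, since the log2 fold change was 0.14 without it. This mouse also had the lowest RNA integrity number, 5.7. Melanocytes express Gpnmb as well. Of 6 melanocyte markers 4 were tested, and none passed an unadjusted p of 0.05 in edgeR, while DESeq2 passed Tyr alone of the 6 at that p (higher) and gave it no adjusted p. Their score was -0.12 to 0.77 for AAV-GFP animals, highest in AAV-GFP-2011, and -0.52 to 0.86 for AAV-Notum animals, with 0.44 in AAV-Notum-2034. Tyr had 0 to 6 reads and Tyrp1 at most 1 per mouse. The part of these markers in the level of Gpnmb was not tested.

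Spp1 encodes osteopontin, a secreted ligand of integrins and CD44 (ENSMUSG00000029304, chromosome 5 from 104435118 to 104441050, plus strand). Its level was low, at 1.11, 2.17 and 5.38 CPM in AAV-GFP and 0.681, 2.55 and 9.22 CPM in AAV-Notum animals, lowest, median and highest, from 13 to 163 reads. The highest mouse was again AAV-Notum-2034, and the groups overlapped. Spp1 had a log2 fold change of 0.23 (SE 0.60, edgeR adjusted p = 0.843, exact permutation p = 0.924) and -0.40 without AAV-Notum-2034.

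A list of 16 further genes of lipid-associated macrophages, 15 of them tested, held no gene lower and 1 gene higher at an edgeR p under 0.05 before adjustment, where 9.54% of all genes were lower and 4.64% higher. Its median log2 fold change was -0.07, and 0.02 without AAV-GFP-2011. With single mice left out, 0 to 2 genes of the list were lower at that p and the median ran from -0.14 to 0.02. The higher gene was Fabp5, a fatty acid binding protein gene that adipocytes and other cells also express, at 46.1 ± 6.28 CPM in AAV-GFP and 72.9 ± 22.4 CPM in AAV-Notum animals (SD, n = 6, log2 fold change 0.66, edgeR adjusted p = 0.201). Ctsl, which encodes the lysosomal protease cathepsin L, had a log2 fold change of -0.42 (edgeR unadjusted p = 0.0625). Mmp12, the macrophage elastase gene, had 119.8 CPM in AAV-GFP-2011 and 3.14 to 24.1 CPM in the other 11 mice (log2 fold change -1.57, edgeR adjusted p = 0.401). Of 14 inflammatory macrophage genes, 10 were tested, and none passed the unadjusted p in either direction in edgeR. Of the 10, 8 had positive log2 fold changes, with a median of 0.41, and the median was -0.12 with the lymphoid score as a covariate. DESeq2 passed 1 of the 14 as higher at that p and none after adjustment. Il18, the interleukin-18 gene, had the smallest p, at 6.09 ± 2.41 against 8.59 ± 1.82 CPM (log2 fold change 0.50, edgeR unadjusted p = 0.0778). Tnf was at 3.27 ± 2.98 against 6.26 ± 2.28 CPM (log2 fold change 0.94, edgeR unadjusted p = 0.17), with all 6 AAV-Notum animals above the mean of the controls. Ccl2, the monocyte chemoattractant gene, was at 3.33 ± 2.13 against 2.19 ± 0.526 CPM (log2 fold change -0.60, edgeR unadjusted p = 0.147). The study listed Ccl2 as lower after adjustment in its own DESeq2 test of iWAT, unlike the DESeq2 fit here.

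Among 10 transcription factors of macrophages, 2 were lower at an edgeR p under 0.05 before adjustment, where 9.54% of all genes were, and none was higher. Klf4 went from 54.2 ± 10.7 to 37.1 ± 5.20 CPM (SD, n = 6, log2 fold change -0.55, edgeR adjusted p = 0.136, adjusted p = 0.00971 from DESeq2), with no overlap between the groups, as in 0.693% of all genes. Cebpb went from 72.5 ± 18.9 to 49.2 ± 9.56 CPM (log2 fold change -0.56, edgeR adjusted p = 0.214). Both factors are also expressed by other cells of fat. Nr1h3, which encodes the oxysterol receptor LXR alpha, had a log2 fold change of -0.28 (edgeR unadjusted p = 0.0744). The log2 fold changes of the 7 tested monocyte genes were positive for 5 and had a median of 0.26, and the median was -0.06 with the lymphoid score as a covariate. Of the 7, Ace alone was lower at that p, with a log2 fold change of -0.52 (edgeR unadjusted p = 0.00688), and vessel endothelium expresses it as well. Plac8 (0.85, edgeR unadjusted p = 0.153) and Ly6c2 (0.95, edgeR unadjusted p = 0.213) did not pass, and both had all 6 AAV-Notum animals above the mean of the controls.

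**Figure D4:**
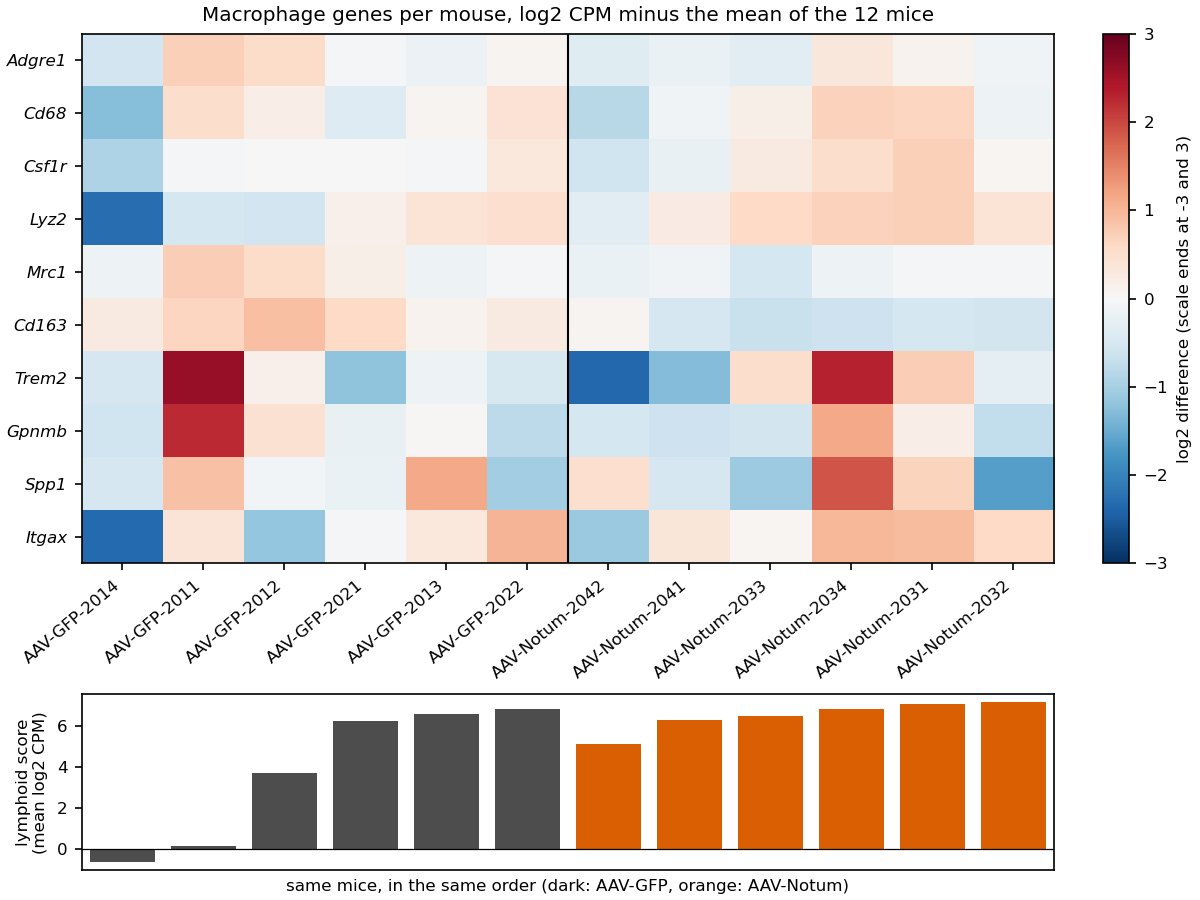
Each macrophage gene (rows) in each mouse (columns, AAV-GFP left and AAV-Notum right of the line) as log2 CPM minus the mean of the 12 mice, above the lymphoid score of the same mice in the same order. Cd163 is above its mean in all 6 AAV-GFP animals and also in AAV-Notum-2042. Trem2 and Gpnmb stand out in AAV-GFP-2011 and AAV-Notum-2034, and Lyz2 and Itgax are lowest in AAV-GFP-2014.

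Per transcript length, as CPM per kilobase of exon (RPKM), the order of mean levels in AAV-GFP animals was Lyz2 (422), Cd68 (28.2), Csf1r (20.5), Mrc1 (12.4), Cd163 (11.3), Adgre1 (8.69), Gpnmb (7.58), Itgax (3.20), Spp1 (1.72) and Trem2 (0.174). The ranges of neighbours in this order overlapped between mice except for Lyz2 and Cd68. In AAV-Notum animals the order was the same save that Adgre1, at 7.40 RPKM, stood above Cd163, at 5.85 RPKM. The level of a gene across the 12 mice spanned 2.41-fold for Mrc1, 2.46-fold for Adgre1 and 3.01-fold for Cd163, and 10.5-fold for Itgax and 13.5-fold for Spp1.

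The 10 genes formed 45 pairs, of which 36 had a positive Pearson r of log2 CPM over the 12 mice. By Pearson's r, 14 pairs had an adjusted permutation p under 0.05, and 4 of these also did by Spearman's rho. The closest pair was Cd68 and Csf1r, with r = 0.90 (permutation p = 7e-05, adjusted p = 0.00315) and rho = 0.74 (permutation p = 0.00797, adjusted p = 0.0512). For this pair r was 0.70 without the 2 mice farthest from the median of Cd68 and 0.92 without the 2 mice of low lymphoid score. Csf1r and Lyz2 had r = 0.83 (permutation p = 7e-04, adjusted p = 0.0093) and rho = 0.82 (permutation p = 0.002, adjusted p = 0.0298), with r = 0.64 without the 2 mice farthest from the median of Csf1r and 0.73 without the 2 mice of low lymphoid score. Gpnmb and Spp1 had r = 0.70 (permutation p = 0.008, adjusted p = 0.0327) and rho = 0.85 (permutation p = 9e-04, adjusted p = 0.0298), with r = 0.67 without the 2 mice farthest from the median of Gpnmb and 0.81 without the 2 mice of low lymphoid score.

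Mrc1 and Cd163 varied together among AAV-GFP animals, with r = 0.86 over 6 mice, but r was 0.12 over the 6 AAV-Notum animals, and this contrast was not tested. Over all 12 mice r was 0.73 (permutation p = 0.0032, adjusted p = 0.0162), rho was 0.65 (permutation p = 0.0255, adjusted p = 0.0884), and r was 0.49 without the 2 mice farthest from the median of Mrc1. With Csf1r over the 12 mice, r was -0.01 for Mrc1 (rho 0.09, adjusted permutation p = 0.975 for r) and -0.38 for Cd163 (rho -0.45, adjusted permutation p = 0.398 for r). For Cd163 and Csf1r r was 0.18 over the 6 AAV-GFP animals and -0.75 over the 6 AAV-Notum animals. These values share libraries and depth within each mouse.

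**Figure D5:**
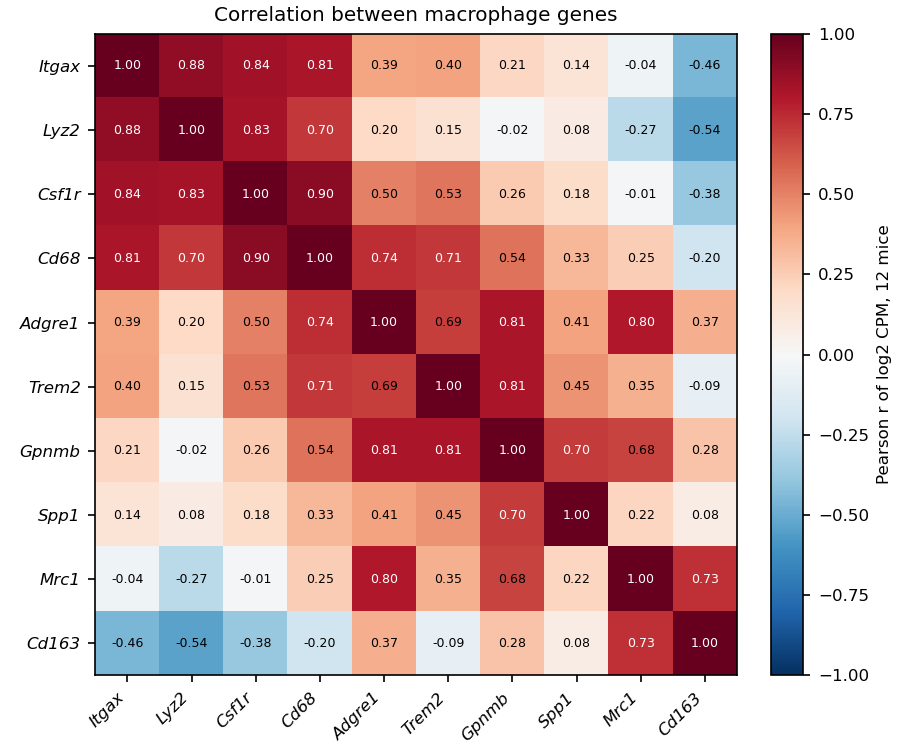
Pearson r of log2 CPM over 12 mice for each pair of the macrophage genes (rows and columns, color scale from -1 to 1). Itgax, Lyz2, Csf1r and Cd68 form a block of r from 0.70 to 0.90. Cd163 has negative r with all 4 of them, none passing an adjusted permutation p of 0.05. Within the groups (not drawn), these r of Cd163 ran from -0.17 to 0.26 in AAV-GFP and from -0.91 to -0.75 in AAV-Notum animals.

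The genes most like Csf1r across the 12 mice, among all genes tested, were Slc37a2 (r = 0.97), Lrrc25 (0.96), Pld3 (0.96), Sirpa (0.94) and Man2b1 (0.94), by Pearson r of log2 CPM and chosen as the 5 highest. The log2 fold change of Slc37a2 was 0.41, that of Sirpa, which encodes an inhibitory receptor of myeloid cells, was 0.28, and that of the other 3 lay between 0.06 and 0.30. Those most like Trem2 were Atf3 (0.90), Mier2 (0.88), Gusb (0.85), Kcnk13 (0.85) and Prelid1 (0.84), ranked against a gene of at most 62 reads. These correlations are descriptions, since the genes were picked for them.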

How the data were processed

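RNA of iWAT from 12 mice was sequenced by the authors as TruSeq libraries (single-end reads, HiSeq4000). Per the submitters' processing notes, reads were checked with FastQC, mapped to mm10 with STAR 2.3.1 and tested with DESeq2. The counting program, its use of strand and the gene annotation are not given in the sources used here. The deposited raw table holds counts of reads per gene without normalization. A second deposited table holds log2 values, computed as log2 of 1 plus the size-factor-scaled reads, and inverting them returned whole numbers of reads for 100% of values of up to 200 reads (tolerance 0.05). These reads and values entered as alternatives only.

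Counts were analysed with edgeR 4.0.16 in R 4.3.3: filterByExpr (minimum count 10, minimum total 15), TMM, estimateDisp, glmQLFit and a two-sided quasi-likelihood test of group over all 12 mice, with Benjamini-Hochberg adjustment over 15585 genes and a threshold of 0.05. A standard error is the size of the log2 fold change over the root of its F statistic. CPM use TMM-scaled library sizes and log2 CPM a prior count of 2. A list score is the mean log2 CPM of its genes. Exact permutation tests used the difference of mean log2 CPM, and correlations used 100000 permutations. RPKM used the joined exon lengths of GENCODE vM21, from which positions and overlaps were also taken. Total counts of 14711113 to 21618860 leave genes of few reads, Trem2 and Spp1, with large counting error. Each library came from 1 mouse.

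The 10 genes and the marker lists were chosen with earlier results of these data known. Genes named from a list of macrophages, of their partners, of monocytes or of dendritic cells include its 3 of smallest p, and lists of other cell types are given by counts or scores. Alternatives were DESeq2 1.42.0, voom of limma 3.58.1, RLE size factors, filters of at least 1 count in all or at least 10 in every mouse, the RNA integrity number or lymphoid score as a covariate, a prior count of 0.5, the recovered reads, and each mouse or the 2 mice of low lymphoid score left out. Added after the data were seen were hepatocyte and adipocyte scores as covariates, bias-adjusted quasi-dispersions, and list counts under settings other than DESeq2 and the lymphoid score. Scripts were tested on simulated counts. Figures were drawn with matplotlib.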

Additional observations from a re-analysis of the deposited data

Results flagged for a closer look

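In 54 groups of 6 mice (10 genes and 17 marker lists in each virus group), 5 held a mouse that lay far from the other 5 by Dixon's criterion (its gap to the nearest of the others, as a share of the range, above the 95% critical value), where chance alone flags about 1 in 20 groups. Csf1r was at 6.03 log2 CPM in AAV-GFP-2014 and at 6.91 to 7.28 in the other AAV-GFP mice. The pan-macrophage list scored 3.75 in the same mouse and 4.96 to 5.68 in the others, and this mouse also had the lowest lymphoid score, -0.67. Trem2 was at 1.84 log2 CPM in AAV-GFP-2011, from 62 reads, and at -1.98 to -0.62 in the other AAV-GFP mice. Mrc1 was at 5.55 log2 CPM in AAV-Notum-2033 and at 5.88 to 6.05 in the other AAV-Notum mice. Cd163 was at 5.53 log2 CPM in AAV-Notum-2042, nearest to the AAV-GFP mice, and at 4.77 to 4.94 in the other AAV-Notum mice. That mouse had the lowest lymphoid score of its group, 5.12, and the lowest Csf1r, Lyz2, Itgax, Cd68 and Adgre1 of its group. The cause of these values was not tested.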

How the results depend on the processing

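Of 216 log2 fold changes of the 9 tested macrophage genes under alternative settings, 195 kept their direction and their side of the threshold, 7 kept their direction and passed an adjusted p of 0.05, and 14 turned direction. All 30 exact permutation tests kept their side. Cd163 stayed lower in all 24 alternatives (log2 fold change -1.08 to -0.84, adjusted p 2.48e-05 to 0.254), and Mrc1 did too (-0.49 to -0.27). The count of macrophage genes with an adjusted p under 0.05 was 0 in the edgeR fit and 1, Cd163, with DESeq2, with at least 10 counts in every mouse (adjusted p = 0.0425), and with the hepatocyte or adipocyte score as a covariate (0.0244 and 0.0168), and ran from 0 to 1 with single mice left out. The count lower at an unadjusted p under 0.05 was 1, in place of 2, with the RNA integrity number, lymphoid or adipocyte score as a covariate, and ran from 1 to 2 with single mice left out. The resident list held 4 such genes with the lymphoid score as a covariate, 6 with the RNA integrity number, 7 with limma-voom (with 2 genes higher), 8 with the adipocyte score (with 1 higher), 11 with the hepatocyte score and 6 to 9 with single mice left out. The pan-macrophage list held 2, Fcgr3 and Mertk, with the hepatocyte score as a covariate, and 0 to 1 with single mice left out (Fcgr3 without AAV-GFP-2014). At that p, 1487 of all 15585 genes were lower in the main edgeR fit. With the lymphoid score 760 were, with the RNA integrity number 928 and with limma-voom 1328 (1462 higher). With the adipocyte score 1468 were lower (1652 higher) and with the hepatocyte score 1756. With single mice left out, 1053 to 2138 of the genes tested were lower. The log2 fold change of Cd68 turned to -0.066, -0.022 and -0.051 with the lymphoid, hepatocyte and adipocyte scores, and ran from -0.045 to 0.25 with single mice left out. That of Csf1r turned to -0.015 and that of Itgax to -0.050 with the lymphoid score. Gpnmb turned to 0.14 with the RNA integrity number, 0.17 with the lymphoid score and 0.047 without the 2 mice of low lymphoid score, and ran from -1.02 to 0.14 with single mice left out. Spp1 turned to -0.077 with limma-voom and ran from -0.40 to 0.51 with single mice left out. The cause was not tested. No paired analysis was possible because each mouse carries a number of its own. Depth limits Trem2 (0 to 62 reads) and Spp1 (13 to 163 reads).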

Other observations

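Marker lists of other cell types were also counted. Of 9 neutrophil genes, 3 were tested and none passed an edgeR p of 0.05 before adjustment, and the list score was -0.31 to 2.57 in the AAV-GFP group and 0.59 to 1.86 in the AAV-Notum group. None of the 5 tested lymphatic endothelial, 4 melanocyte and 2 epithelial genes passed either. Of 5 tested mast cell genes, Kit alone was higher at that p, where 4.64% of all genes were. It had a log2 fold change of 0.51 (edgeR unadjusted p = 0.0497, adjusted p = 0.352), with all 6 AAV-Notum animals above the AAV-GFP mean. Of 10 adipocyte genes, 8 had negative log2 fold changes and none passed, the smallest p being that of Lep, the leptin gene (log2 fold change -1.14, edgeR adjusted p = 0.372). Of 7 hepatocyte genes, all had negative log2 fold changes (median -2.80). Alb and Serpina1a, 2 of the 7, were lower at an edgeR p under 0.05 before adjustment, where 9.54% of all genes were.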
